A study of Homo sapiens with 8 samples.

Results

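The UDP-glucuronosyltransferases (UGTs) were followed in SAS cells that received a miR-629-3p, a miR-210-3p or a miR-874-3p RNA, or a negative control RNA (NC). UGT2B7, UGT2B10 and UGT2B11 were 2.85- to 4.17-fold higher with miR-629-3p than with NC on 2 arrays a group, while UGT2B7 and UGT2B10 were 3.74-fold and 2.41-fold lower with miR-210-3p. UGT2B11 was detected on both arrays with miR-629-3p only, and on 1 of 2 with NC. It was thus tested only through the group in which it was highest. No UGT probe was called between miR-874-3p and NC. The members were all gene probes of the array named UGT2B7, UGT2B10, UGT2B11, UGT2B15, UGT2B17, UGT2B28, UGT1A1, UGT1A6 or UGT8 in the scanner files. That rule gave 9 probes of 58201, for 7 of the 9 names. No probe carried the name UGT2B17 or UGT1A1.

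SAS is an established human tongue squamous carcinoma line. The study's text names the transfected cells SAS/GFP, a derivative that carries a GFP vector, and all groups share that background, where the labels write SAS and list puromycin in the medium. Each group received 25 nM of its RNA, total RNA was taken after 48 h according to the labels (the study's methods give a shorter time), and 100 ng was labelled in 1 colour for an Agilent whole-transcriptome array. There were 4 groups of 2 arrays. The study's methods name different suppliers for the miRNA mimics and for the NC. In comparisons with NC, supplier and group therefore cannot be told apart. The labels do not say whether the 2 samples of a group came from separate cultures, so the p-values measure the spread between these samples, which may be technical.

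UGTs attach a sugar from a UDP-sugar donor to a small lipophilic molecule, which makes it water-soluble and ready for export. The UGT1A and UGT2B enzymes use UDP-glucuronic acid and act on drugs, steroids, bile acids and bilirubin, mostly in liver, gut and kidney. UGT8 uses UDP-galactose and makes galactosylceramide, the main glycolipid of myelin. The UGT2B genes lie side by side on chromosome 4 and are very similar in sequence, while the UGT1A genes on chromosome 2 have separate first exons and share the rest of the transcript. In bulk RNA, fewer cells expressing a gene and less RNA per cell cannot be told apart.

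The mature sequences of the 3 transfected miRNAs (RefSeq, GRCh38.p14) are shown because they define the groups, with the seed (bases 2 to 8) in capitals.
miR-629-3p: gUUCUCCCaacguaagcccagc
miR-210-3p: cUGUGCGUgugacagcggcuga
miR-874-3p: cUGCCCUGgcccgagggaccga
The 3 seeds differ. None of the 9 member probes held the complement of any of the 3 seeds, which occurred in 0.747% of all probes for miR-629-3p, 0.131% for miR-210-3p and 0.387% for miR-874-3p. A probe is a short window of the transcript, so this says nothing of sites elsewhere in it.

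A probe shared by near-identical genes cannot assign its signal to 1 of them. The array annotation lists at most 4 accessions for a probe, so the genes given here are those it names and may not be all. The UGT2B7 probe A_23_P136671 (hg19, chr4:69978384-69978443, plus strand) listed only UGT2B7 among the accessions found in RefSeq. The UGT2B10 probe A_23_P7342 (chr4:69696473-69696532, plus strand) also listed UGT2B11, and the UGT2B11 probe A_23_P212968 (chr4:70074103-70074162, minus strand) also listed UGT2B28. These 3 probes, each of 60 bases, carry the main differences.
UGT2B7: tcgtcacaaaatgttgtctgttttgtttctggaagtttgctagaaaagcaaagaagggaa
UGT2B10: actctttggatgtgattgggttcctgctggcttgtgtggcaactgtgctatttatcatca
UGT2B11: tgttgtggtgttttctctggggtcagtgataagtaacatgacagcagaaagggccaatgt
The UGT2B15 probe A_23_P58407 (chr4:69512758-69512817, minus strand) also listed UGT2B17, the nearest thing to a UGT2B17 measurement here. Both UGT1A6 probes, A_23_P60599 (chr2:234681607-234681665) and A_24_P222872 (chr2:234676521-234676580), listed UGT1A1, UGT1A4 and UGT1A8 beside UGT1A6, so they read the common end of UGT1A transcripts, UGT1A1 included. The UGT8 probe A_24_P103264 listed only UGT8. The accessions of the UGT2B28 probe A_33_P3424872 and of the second UGT2B7 probe A_21_P0012590 were not found in RefSeq.

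All values below are log2 signals relative to the 75th percentile of the array, and all differences are on the log2 scale. Testing required a signal well above background on 2 of 2 arrays in some group, which left 5 of the 9 member probes among the 27303 tested. Differences and their standard errors come from limma, p-values were adjusted by Benjamini-Hochberg over the 27303 probes, and a probe was called at an adjusted p under 0.05. Between 42.2% and 49.8% of the probes of an array were well above background. All 8 arrays lay on 1 slide, with miR-629-3p and miR-210-3p in row 1 and miR-874-3p and NC in row 2. The contrasts miR-629-3p against miR-210-3p and miR-874-3p against NC therefore lie within a row. In the others, row and group cannot be told apart. The 22301 probes above background on no array had a median of -5.56 in the miR-629-3p group, -5.39 in the miR-210-3p group, -4.98 in the miR-874-3p group and -4.87 in NC.

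**Figure D1:**
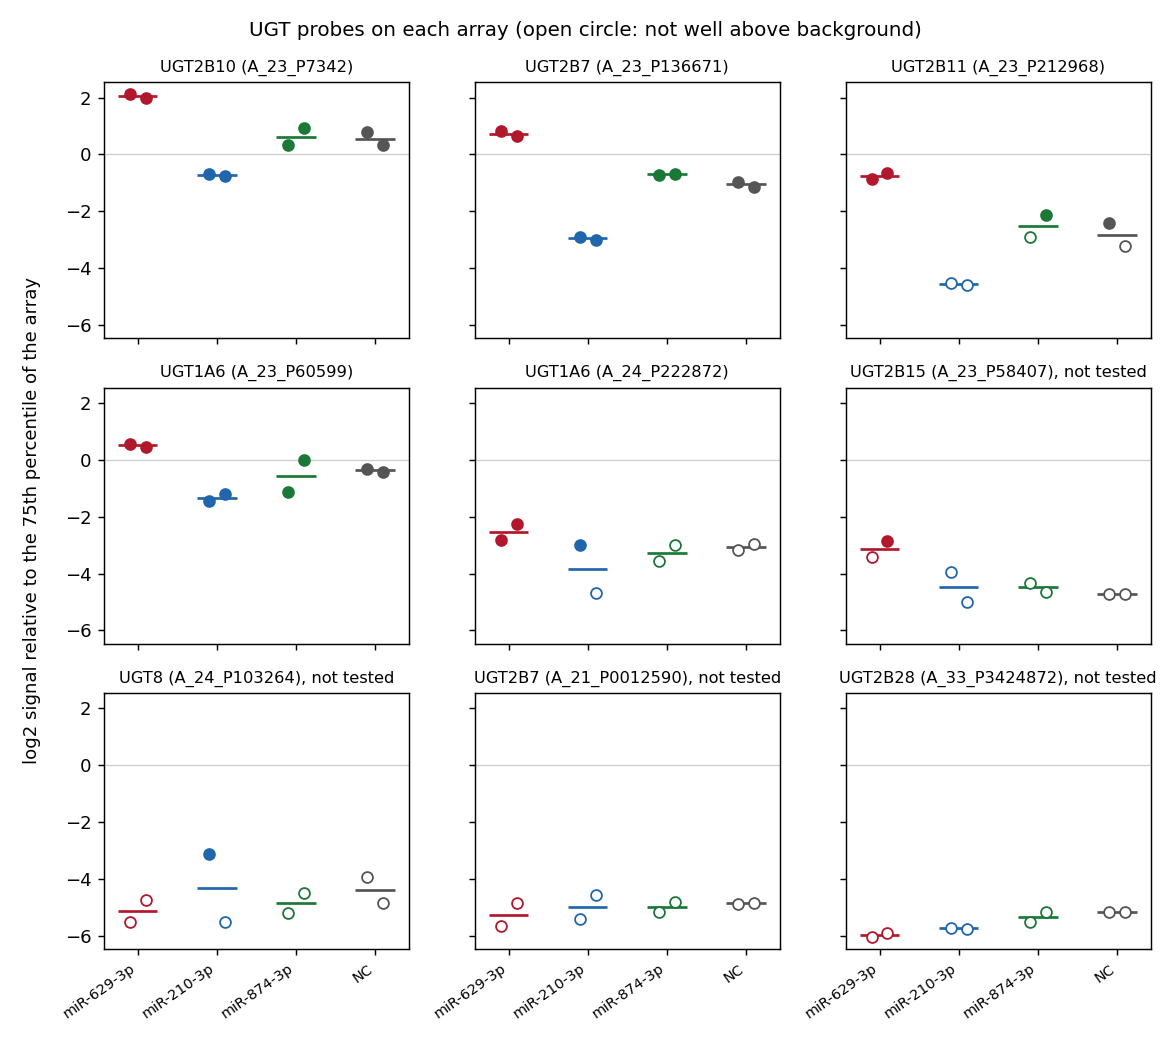
Log2 signal relative to the array's 75th percentile (y axis) of the 9 UGT probes in the 4 groups (x axis), 1 panel per probe; each circle is 1 array, filled where the probe was well above background, and bars are group means of 2 arrays. The UGT2B10, UGT2B7 and UGT2B11 probes were highest on the miR-629-3p arrays and lowest on the miR-210-3p arrays, while the bottom row holds 1 filled circle.

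UGT2B7, which glucuronidates morphine and many other drugs as well as bile acids and fatty acids, was well above background on all 8 arrays with probe A_23_P136671. It read 0.82 and 0.63 on the miR-629-3p arrays, against -2.91 and -3.0 on the miR-210-3p arrays. Readings of -0.72 and -0.68 (miR-874-3p) and of -0.96 and -1.14 (NC) lay between them. No 2 groups overlapped, and from the highest level down the order was miR-629-3p, then miR-874-3p, then NC, then miR-210-3p. Against NC, UGT2B7 was higher by 1.77 (SE 0.10) with miR-629-3p, a 3.42-fold difference (adjusted p = 0.00214). With miR-210-3p it fell by 1.90 (SE 0.10), a 3.74-fold difference (adjusted p = 0.00516). The difference between miR-874-3p and NC was 0.35 (95% interval 0.09 to 0.61), which did not pass (adjusted p = 0.212). These neighbours in the order were thus not separated by the test.

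Within slide row 1, UGT2B7 was 12.8-fold higher with miR-629-3p than with miR-210-3p (3.68 on the log2 scale, adjusted p = 0.000598). It was also 1.42 higher with miR-629-3p than with miR-874-3p (adjusted p = 0.00362). It was 4.76-fold lower with miR-210-3p than with miR-874-3p (adjusted p = 0.00288). These 5 calls were kept when any 1 of the 8 arrays was left out. With normexp background correction (offset 50) the difference of miR-629-3p from NC was 0.88 and that of miR-210-3p from NC -0.44, smaller than the values given, and both remained called. The difference between miR-629-3p and miR-210-3p was as small as 1.33 over the 14 alternative settings that kept every array, and all 14 called it. Fitted on the miR-210-3p and NC arrays alone, the fall with miR-210-3p had an adjusted p of 0.0502. The second UGT2B7 probe, A_21_P0012590, was not well above background on any array (-5.65 to -4.57) and gave no measurement.

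UGT2B10, an enzyme of N-glucuronidation that acts on nicotine and tertiary amine drugs, was also above background on all 8 arrays. It read 2.13 and 2.0 on the miR-629-3p arrays, against -0.68 and -0.75 on the miR-210-3p arrays. In between, miR-874-3p gave 0.33 and 0.93 and NC gave 0.79 and 0.32. Both miR-629-3p arrays were above and both miR-210-3p arrays below all 4 others, among which miR-874-3p and NC overlapped. UGT2B10 was 2.85-fold higher with miR-629-3p than with NC (1.51, SE 0.24, adjusted p = 0.0171). With miR-210-3p it was 2.41-fold lower (-1.27, SE 0.24, adjusted p = 0.0440). The difference between miR-874-3p and NC was 0.08 (95% interval -0.51 to 0.67, adjusted p = 0.913).

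Within row 1, the UGT2B10 difference between miR-629-3p and miR-210-3p was 2.78, or 6.87-fold (adjusted p = 0.00419), and it was called without any 1 of the arrays. Against miR-874-3p, UGT2B10 was 1.43 higher with miR-629-3p (adjusted p = 0.0186) and 1.35 lower with miR-210-3p (adjusted p = 0.0319). The first call was lost without either miR-629-3p array (adjusted p of up to 0.100, without replicate 1). The second held in 3 of the 8 fits that left out 1 array, those without an NC array or miR-874-3p replicate 1, and the adjusted p rose to 0.145 without miR-210-3p replicate 1. The rise over NC was not called without miR-629-3p replicate 1 (1.44, adjusted p = 0.0990), miR-629-3p replicate 2 (1.57, adjusted p = 0.0818) or NC replicate 2 (1.27, adjusted p = 0.0724). The fall with miR-210-3p passed narrowly. It was called only without a miR-874-3p array, and leaving out any 1 of the other 6 arrays gave adjusted p-values of 0.0775 (NC replicate 2) to 0.181 (either miR-210-3p array).

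UGT2B11, a relative of UGT2B10 with activity towards oxidised fatty acids, was dimmer. It read -0.87 and -0.65 on the miR-629-3p arrays, both well above background. The miR-210-3p arrays gave -4.51 and -4.59, neither above background. The miR-874-3p arrays gave -2.92 and -2.14, the NC arrays -2.40 and -3.23, and 1 array of each of these groups was above background. UGT2B11 exceeded NC by 2.06 (SE 0.35) after miR-629-3p transfection, a fitted 4.17-fold difference (adjusted p = 0.0199), and this compares with a control measured on 1 of 2 arrays. Against miR-210-3p, where only a bound exists, it was at least 6.24-fold higher (adjusted p = 0.00458). With normexp that difference was 0.68 on the log2 scale and was also called. The bound, taken from the processed signal, sets the dim group, on each array, at the lowest signal among detected probes or the probe's own signal, whichever is higher.

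With miR-210-3p, the UGT2B11 difference from NC was a fitted -1.73 and missed the threshold (adjusted p = 0.0509). No fold is given, because no miR-210-3p array and only 1 NC array was above background. The difference ran from -1.81 to -0.14 over the alternative settings that kept every array. With every array kept and p-values adjusted, it passed under 4 other settings, which were quantile normalization, the deposited log2 values, 1 probe per gene and eBayes with a trend (adjusted p of 0.0239 to 0.0499). It also passed without either miR-874-3p array (adjusted p = 0.0375) and by the 2-fold rule of the study, which uses p-values before adjustment. Against miR-874-3p, UGT2B11 was higher with miR-629-3p (1.77, adjusted p = 0.0285) and lower with miR-210-3p (fitted -2.02, adjusted p = 0.0303). No fold is given for the latter, with only 1 miR-874-3p array and no miR-210-3p array above background. Each of these calls held in 3 of the 8 fits that left out 1 array. The first held without either NC array or miR-874-3p replicate 2 (otherwise up to 0.132, without miR-629-3p replicate 2), and the second without either NC array or miR-874-3p replicate 1 (otherwise up to 0.143, without miR-210-3p replicate 1). The difference between miR-874-3p and NC was 0.29 (adjusted p = 0.738). The rise over NC was not called without miR-629-3p replicate 1 (2.16, adjusted p = 0.0951), miR-629-3p replicate 2 (1.95, adjusted p = 0.101) or NC replicate 2 (1.64, adjusted p = 0.0722). With normexp it was 0.54.

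UGT1A6 conjugates small planar phenols and serotonin, and its 2 probes read the shared end of the UGT1A family. Probe A_23_P60599 was above background on all arrays, reading 0.55 and 0.46 on the miR-629-3p arrays, against -1.44 and -1.22 on the miR-210-3p arrays. For miR-874-3p the readings were -1.15 and -0.01, for NC -0.31 and -0.42. The miR-629-3p arrays were the highest and the miR-210-3p arrays the lowest, while the miR-874-3p arrays lay on both sides of NC. It was 3.57-fold higher with miR-629-3p than with miR-210-3p (1.84, SE 0.35, adjusted p = 0.0212). That call was lost without miR-629-3p replicate 1 (adjusted p = 0.104), miR-629-3p replicate 2 (0.0929), miR-210-3p replicate 1 (0.107) or miR-210-3p replicate 2 (0.0871), with differences of 1.73 to 1.95. Against NC, neither the difference of 0.88 with miR-629-3p (95% interval 0.00 to 1.75, adjusted p = 0.152) nor that of -0.96 with miR-210-3p (adjusted p = 0.164) passed. Both passed when a miR-874-3p array was left out (adjusted p of 0.0126 and 0.0203), since the 2 miR-874-3p arrays differ by over 1 on this probe and share in the estimate of the spread.

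Probe A_24_P222872 was above background on both miR-629-3p arrays (-2.83 and -2.25) and on 1 miR-210-3p array. Over the other 3 groups it ran from -4.67 to -2.98. It was called in no comparison, with adjusted p-values of 0.159 to 0.902. The probe of UGT1A8, which is outside the rule but names UGT1A1, UGT1A4 and UGT1A5 beside UGT1A8, also reads the common end. It read -2.09 and -2.73 on the miR-629-3p arrays, against -5.60 and -5.18 on the miR-210-3p arrays. With miR-874-3p it gave -4.37 and -2.80. The 2 NC arrays read -3.80 and 3.42, so its comparisons with NC (adjusted p = 0.212 to 0.530) rest on a control that differs with itself by more than the groups do.

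The remaining members were at or near background. UGT2B15, which inactivates androgens, was above background only on miR-629-3p replicate 2. Its 2 values with miR-629-3p were -3.43 and -2.86, against -4.73 and -4.71 with NC and -5.00 to -3.95 over the other 4 arrays, so the miR-629-3p arrays were the 2 highest. It did not pass the detection filter. Without that filter its fitted difference from NC was 1.58 (adjusted p = 0.0367), for which no fold is given, because its mean with miR-629-3p lay under the lowest detected signals of the NC arrays. UGT2B28 is another enzyme of androgen conjugation. The probe of that name was above background nowhere, with values from -6.05 and -5.90 with miR-629-3p to -5.15 and -5.14 with NC. That order of the group means is the order of the undetected probes given above. UGT8 was above background on miR-210-3p replicate 1 alone (-3.11, against -5.50 on replicate 2). No change was detectable at this signal with the probe named UGT2B28 or with that of UGT8. The UGT2B11 probe, which also lists UGT2B28, did differ between groups, and its signal cannot be assigned to either gene.

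**Figure D2:**
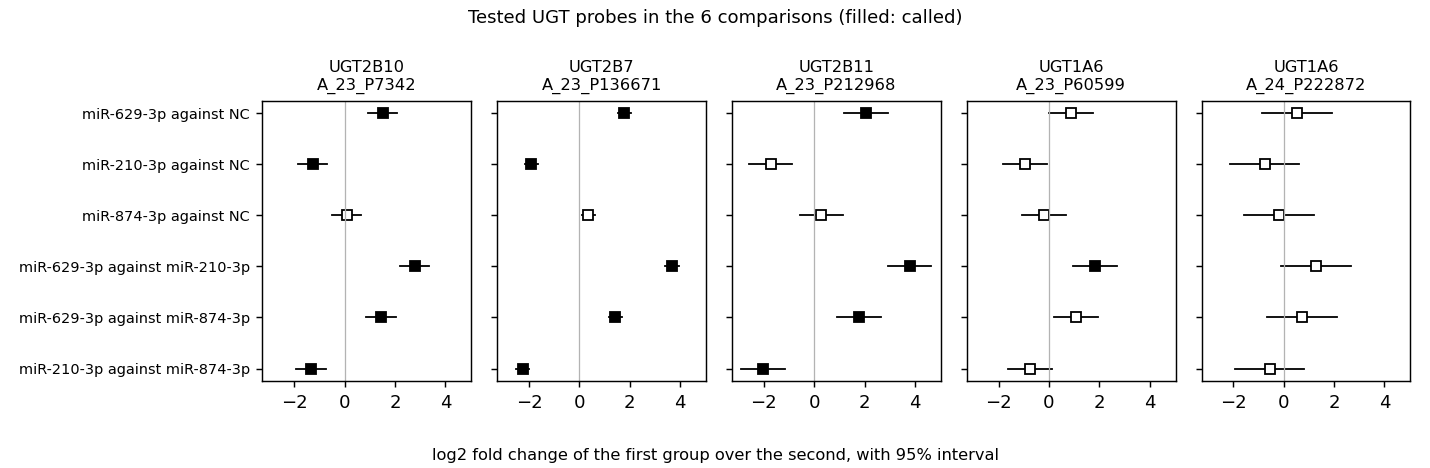
Fitted log2 fold changes (x axis, first group over second) of the 5 tested UGT probes in the 6 comparisons (y axis), with 95% intervals from limma; filled squares are called at an adjusted p under 0.05. The UGT2B7 and UGT2B10 probes are filled in every comparison except miR-874-3p against NC, and the intervals of the UGT1A6 probe A_24_P222872 cross 0 throughout.

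The share of calls over all probes gives the background for these results. Of the 5 tested member probes, 3 were called higher and none lower with miR-629-3p against NC, where 15.2% of all tested probes were called and 8.85% were called higher. With miR-210-3p against NC 2 were called lower, where 1.92% of all probes were called lower and 5.64% called in all. With miR-874-3p against NC the count was 0, where 0.352% were called. In that comparison 1 member probe, UGT2B7, had an unadjusted p under 0.05 (0.0167). The methods' t-test called 0 as well, and 0 of all 27303 probes there. Against miR-210-3p, 4 member probes were higher with miR-629-3p, where 21% were called and 9.24% called higher. Against miR-874-3p, 3 were higher with miR-629-3p (8.63% of all probes higher, 14.5% called) and 3 lower with miR-210-3p (3.02% lower, 8.57% called). The comparisons with NC share the same 2 NC arrays, and those between miRNAs share arrays too. UGT2B11 and A_24_P222872 passed the detection filter only through miR-629-3p, the group in which they were highest, so the counts describe the probes and no more.

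The 250 bases before the annotated start are printed for the 3 UGT2B genes that moved together (RefSeq, GRCh38.p14), to show how alike they are, with each match to TGACNNNGC on either strand in capitals. TGACNNNGC is the core of the antioxidant element, a sequence found near many genes of drug conjugation.
UGT2B7 (chr4:69096224-69096473, plus strand): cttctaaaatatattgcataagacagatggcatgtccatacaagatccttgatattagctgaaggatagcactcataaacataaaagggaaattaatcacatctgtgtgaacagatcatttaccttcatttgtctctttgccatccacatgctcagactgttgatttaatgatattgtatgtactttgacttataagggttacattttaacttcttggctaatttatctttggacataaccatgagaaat
UGT2B10 (chr4:68815744-68815993, plus strand): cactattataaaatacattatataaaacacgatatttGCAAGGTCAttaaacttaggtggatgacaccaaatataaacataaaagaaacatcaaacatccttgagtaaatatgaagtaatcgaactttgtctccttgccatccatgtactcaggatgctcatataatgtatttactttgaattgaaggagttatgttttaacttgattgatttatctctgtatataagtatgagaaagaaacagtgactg
UGT2B11 (chr4:69214749-69214998, minus strand): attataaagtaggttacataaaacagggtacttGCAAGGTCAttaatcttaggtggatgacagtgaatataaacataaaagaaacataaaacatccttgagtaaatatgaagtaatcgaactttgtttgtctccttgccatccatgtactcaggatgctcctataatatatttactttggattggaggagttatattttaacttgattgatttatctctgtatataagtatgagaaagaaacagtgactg
Windows were found for 7 of the 9 members. The UGT2B10 and UGT2B11 windows were identical at 90.2% of aligned positions, and each at 64.6% to 65.1% with UGT2B7. The UGT2B15 window was identical at 61.3% to 71.4% with these 3. For comparison, the windows of UGT1A1, UGT1A6 and UGT8 were identical at 45.5% to 53.5% with the UGT2B windows.

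The core of the AHR site, GCGTG, was in none of the 4 UGT2B windows and in 32.2% of all 35116 promoter windows. It was in the first of the 2 UGT1A6 windows and in 2 of the 3 UGT8 windows. TGACNNNGC was found once in UGT2B10, once in UGT2B11, 213 and 217 bases before the start, and once in the second UGT1A6 window, and in 10.9% of all. It was not found in the windows of UGT2B7 or UGT2B15. Both motifs were searched on both strands. A match of this kind is a description of the sequence only.

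Genes around the glucuronidation reaction were described from lists, each gene by the probe with the highest mean. For miR-629-3p against NC, the median over all probes was 0.03. Of 8 genes that supply or transport UDP-sugars or remove glucuronides, all were tested, with a median of 0.15. GUSB, the lysosomal enzyme that splits glucuronides, was higher with miR-629-3p (0.37, SE 0.08, adjusted p = 0.0350). UGP2, which makes UDP-glucose, was lower (-0.40, adjusted p = 0.0209). UGDH, which makes the UDP-glucuronic acid that UGTs use, differed by 0.28 and did not pass (adjusted p = 0.0749). None of the 8 was called with miR-210-3p or miR-874-3p against NC.

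The 5 exporters of glucuronides were all tested, with a median of 0.31 for miR-629-3p against NC, and 2 were called higher, where 8.85% of all tested probes were. ABCC2, the canalicular exporter of conjugates, had -2.14 and -1.96 with miR-629-3p and was below background on both NC arrays, so that it was at least 1.72-fold higher (adjusted p = 0.00721). ABCG2, a transporter of drugs and conjugates, was 0.96 higher (adjusted p = 0.0189). No exporter was called with miR-210-3p or miR-874-3p against NC. ABCC3, an exporter to the blood side, was 0.80 higher with miR-629-3p than with miR-210-3p with 1 probe (adjusted p = 0.0138) and 0.07 with the other (adjusted p = 0.785), and was named after its value was seen. Against NC its 2 probes differed in sign (0.31 and -0.44), neither of them called.

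Of 11 other genes that respond to the xenobiotic receptors AHR, PXR and CAR, 7 were tested. With miR-629-3p against NC, 3 were called higher and 1 was called lower, where 15.2% of all tested probes were called, and the median was 0.74. CYP1A1, the standard AHR target, was at least 2.61-fold higher (adjusted p = 0.00303), reading -1.49 and -1.37 there, with NC below background. CYP1B1, a hydroxylase of oestrogens and polycyclic hydrocarbons, was 1.46 higher (adjusted p = 0.0346), and its second probe gave 1.25 (adjusted p = 0.0347). CYP2B6, the standard CAR target, was 0.94 higher with 1 probe (adjusted p = 0.0389), while its other probe was not called. CYP3A5, a relative of the main drug-metabolising cytochrome of liver, was below background with all 3 miRNAs and had -2.35 and -1.25 with NC. It was at least 3.64-fold lower with miR-629-3p (adjusted p = 0.00586). For miR-210-3p the bound was 3.03-fold (adjusted p = 0.0111), for miR-874-3p 2.34-fold (adjusted p = 0.0375). This CYP3A5 probe passed the detection filter only through NC, the group in which it was highest, and the 3 comparisons share the NC arrays. These values therefore describe the probe and no more. The second CYP3A5 probe was above background on no array, NC included.

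With miR-210-3p against NC, NQO1, a quinone reductase, was lower (-0.54, adjusted p = 0.0205) and CYP1A1 was at least 1.58-fold higher (adjusted p = 0.0250), both named after their values were seen. Between miR-629-3p and miR-210-3p, 5 of the 7 were called higher with miR-629-3p, where 9.24% of all tested probes were. They included CYP1B1 (1.96, adjusted p = 0.0134) and CYP2B6 (1.51, adjusted p = 0.00985).

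None of the 7 tested transcription factors reported to act on UGT genes was called in any comparison with NC. Their median was 0.21 for miR-629-3p against NC, and ARNT, ESR1, PPARA, PPARG and RXRA were among them. AHR, the dioxin receptor, differed by 0.21 with its brighter probe (adjusted p = 0.224). The probes of the other 8, among them HNF4A, NR1I2 (PXR), NR1I3 (CAR) and NFE2L2, were not above background on both arrays of any group. Sulfotransferases, which compete with UGTs for substrates, had 1 tested gene of 9, and it was not called.

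Around UGT8, 12 of 14 genes of galactosylceramide metabolism were tested, with a median of -0.05 for miR-629-3p against NC. The ceramide synthases CERS6 (-0.65, adjusted p = 0.00771) and CERS1 (-0.56, adjusted p = 0.0163) were lower with miR-629-3p. CERS1 was higher than in NC with miR-210-3p (0.74, adjusted p = 0.0169) and with miR-874-3p (0.80, adjusted p = 0.0415).

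**Figure D3:**
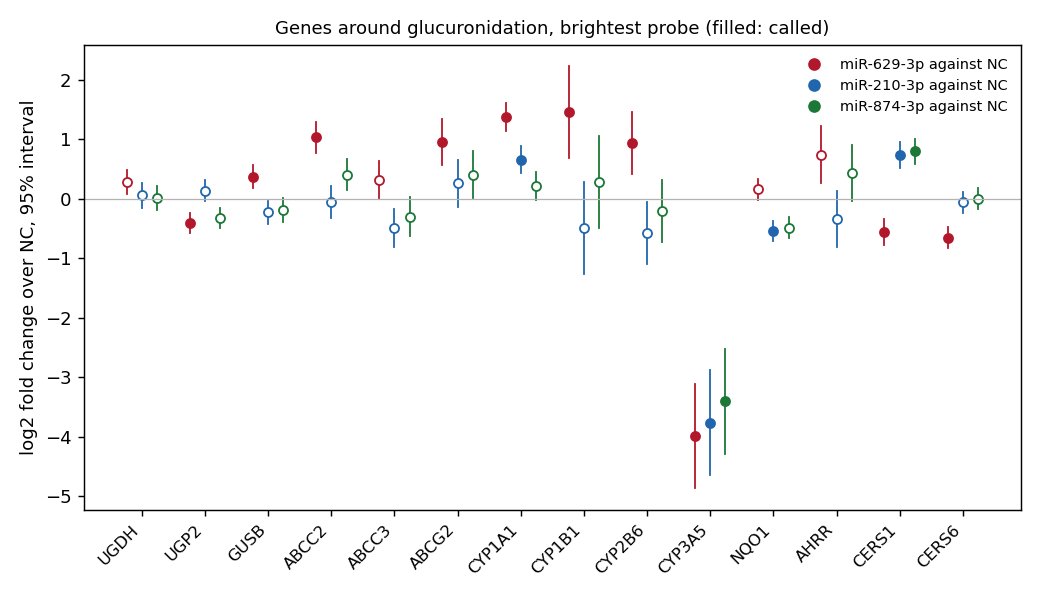
Fitted log2 fold changes over NC (y axis) with 95% intervals for 14 genes of UDP-sugar supply, glucuronide removal, export, xenobiotic response and ceramide synthesis (x axis), in 3 colours for the 3 miRNAs, by the brightest probe; filled circles are called. ABCC2, ABCG2, CYP1A1, CYP1B1 and CYP2B6 are filled and above 0 with miR-629-3p, and CYP3A5, below background with all 3 miRNAs, lies under 0 in each.

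The labelled cell type was checked against marker lists. All 10 squamous epithelium markers were above background on all 8 arrays. Their summed signal, in units of the array's 75th percentile, reached 225 and 228 with miR-210-3p, compared with 352 and 359 with miR-629-3p. For miR-874-3p it was 376 and 460, for NC 428 and 468. KRT14 and KRT17, keratins of basal and activated epithelium, were lower with miR-629-3p (-0.66 and -0.68, adjusted p = 0.0346 and 0.0238), and the cadherin DSG3 was higher (0.72, adjusted p = 0.0198). With miR-210-3p, KRT14 (-1.11, adjusted p = 0.0196), KRT17 (-1.01, adjusted p = 0.0188), KRT5 (-1.25, adjusted p = 0.0284) and SFN were lower. The part of these shifts in the UGT differences was not tested.

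Of 8 hepatocyte markers only APOA1 and SERPINC1 were tested, and ALB, APOA2, TTR, FGA and FGB were above background on no array. CYP3A4 was above background on 1 array of each miRNA group and on no NC array. The summed signal of the 8 markers, which includes the undetected ones, was 0.456 and 0.582 for miR-629-3p, against 0.649 and 0.659 for NC. For miR-874-3p it was 0.531 and 0.597, for miR-210-3p 0.611 and 0.684. APOA1 was lower with miR-629-3p (-0.43, adjusted p = 0.0363), and SERPINC1 was above background on both arrays with miR-210-3p only. Of the fibroblast markers, DCN, LUM, PDGFRA and COL3A1 were not tested, and COL1A1 was 2.79 lower with miR-629-3p than with miR-210-3p (adjusted p = 0.0341), on whose arrays the summed fibroblast signal was 0.426 and 1.54 against 0.168 to 0.285 on the other 6. Of the leucocyte markers, 1 of the PTPRC probes was higher with miR-629-3p than with NC (1.07, adjusted p = 0.0338), while the summed signal was 2.65 and 2.88 with miR-629-3p and 3.10 and 3.81 with NC. All arrays are of a cell line, so these markers are read as gene signals and not as counts of such cells. Their relation to the UGT differences was not tested.

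The pattern of UGT2B10 over the 8 arrays was compared with that of all 22067 probes above background on every array, as the distance between values centred on each probe's mean. The nearest was AKR1B10 (distance 0.43), an aldo-keto reductase that reduces retinal and xenobiotic carbonyls. It read 0.43 and 0.36 on the miR-629-3p arrays, against -2.54 and -2.34 on the miR-210-3p arrays. Between these lay -1.48 and -0.39 (miR-874-3p) and -0.90 and -1.34 (NC). VAV3, a guanine nucleotide exchange factor, followed at 0.54, then ENST00000536141 at 0.58, LOC101927811 at 0.64 and ENST00000594169 at 0.65. AKR1B10 was 1.52 higher with miR-629-3p than with NC (adjusted p = 0.0454), and its difference of -1.32 with miR-210-3p did not pass (adjusted p = 0.0938). AKR1B10 was picked from the 22067 probes for its closeness to UGT2B10 over these same 8 arrays. Its differences from NC largely follow from that choice, so their p-values are not separate evidence. The UGT1A6 probe A_23_P60599 ranked 38 (distance 1.11) and the UGT2B7 probe ranked 40 (distance 1.13). The distances are a description over 8 arrays.

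**Figure D4:**
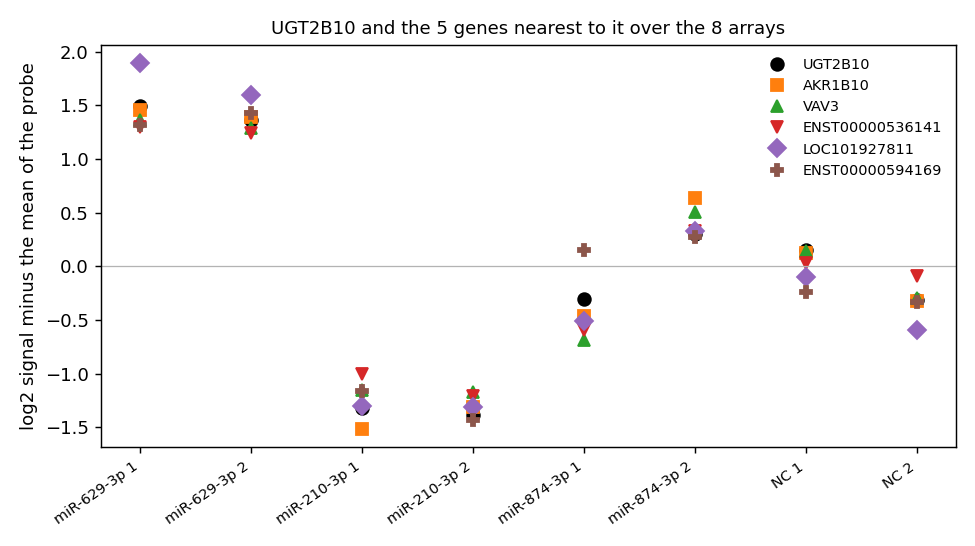
Log2 signal minus the mean of each probe (y axis) for UGT2B10 (black circles) and the 5 genes nearest to it, on each of the 8 arrays (x axis). On the miR-874-3p arrays, replicate 1 lies below replicate 2 for all 6 probes, and on the miR-210-3p arrays all 6 lie below 0.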

How the data were processed

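SAS cells of 4 groups, with 2 arrays each, were measured on 1-colour Agilent arrays. Per the labels, Agilent Feature Extraction 11.5.1.1 produced the deposited intensity values (background-subtracted processed signal, mean signal and local background), with no normalization across arrays. A deposited table holds log2 values, which equal log2 processed signal minus about the 75th percentile (array offsets of -0.05 to 0.004). Groups and replicate numbers came from the labels.

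Control and outlier spots (87 to 346 of 60901 per array) were left out. No spot was saturated. The log2 processed signal minus the array's 75th percentile was averaged per probe. Testing required a value on 8 of 8 arrays and, in some group, 2 of 2 arrays well above background. The fit used limma 3.58.1 (lmFit, eBayes; R 4.3.3) with every array and no covariate (4 residual and 1.72 prior degrees of freedom), which was tested on simulated data. "At least" folds set a group with no array above background at the higher of the array's lowest detected signal and the probe's own. Probe coordinates are those of the array annotation (hg19). Gene symbols, promoters and miRNAs are from RefSeq (GRCh38.p14). Promoter identity is the share of columns in a global alignment (Biopython). The number of arrays limits the precision.

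The members and lists were chosen with earlier results of these data known. Named genes were all members, called genes of the lists (up to 20 for miR-629-3p against NC and 5 for each other comparison, by size) and the 5 probes nearest to the tested member probe with the highest mean with miR-629-3p. The alternatives were normexp, quantile and median scaling, the authors' values, outlier spots kept, a floor, other detection filters, 1 probe per gene, only the groups compared, a trend, a replicate block, the methods' t-test, the study's threshold (unadjusted p under 0.05 and 2-fold) and each array left out. The slide was no block because there was 1. Some genes of the lists are not reported here by name.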

Additional observations from a re-analysis of the deposited data

How the results depend on the processing

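The member counts called were 3 for miR-629-3p against NC, 2 for miR-210-3p against NC, 0 for miR-874-3p against NC, 4 for miR-629-3p against miR-210-3p, and 3 for each of miR-629-3p and miR-210-3p against miR-874-3p. Without a detection filter they were 5 (UGT2B15 added higher and UGT2B28 lower) for miR-629-3p against NC, where 2493 of 57048 probes were then called higher and 11501 lower, and 1 for miR-210-3p against NC and against miR-874-3p. Over all probes, 29 were then called lower for miR-210-3p against NC and 139 against miR-874-3p. With only the groups compared they were 0 for miR-210-3p against NC and 1 for each of miR-629-3p and miR-210-3p against miR-874-3p. Over all 27303 probes, the methods' t-test with Benjamini-Hochberg adjustment called 354 higher and 578 lower for miR-629-3p against miR-210-3p. It called 3 higher for miR-210-3p against miR-874-3p and 0 in the other comparisons. Of the member probes it called 3 in miR-629-3p against miR-210-3p and 0 in every other comparison. Leaving out 1 array gave 1 to 4 for miR-629-3p against NC, miR-210-3p against NC and both comparisons with miR-874-3p, 3 to 4 for miR-629-3p against miR-210-3p, and 0 to 0 for miR-874-3p against NC. The causes were not tested.

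The replicate numbers did not pair the samples (correlations of same-numbered deviations of -0.10 to 0.04). With the number as a block, the count was 1 for miR-210-3p against NC, where the UGT2B10 call was lost (adjusted p = 0.0920), and 1 for miR-210-3p against miR-874-3p. For miR-629-3p against miR-874-3p it was 2, and 3, 4 and 0 in the others. A block with the miR-874-3p numbers crossed, chosen after seeing the data, gave 0 calls for miR-874-3p against NC, as the main fit did.

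No called difference of a member probe changed sign under any alternative. Uncalled ones did so without 1 array. Over the 8 leave-one-out fits of miR-874-3p against NC, UGT2B10 ran from -0.22 to 0.38 (lowest without miR-874-3p replicate 2, and -0.16 without NC replicate 2). UGT2B11 ran from -0.13 (without NC replicate 2; -0.10 without miR-874-3p replicate 2) to 0.70, and UGT1A6 from -0.78 to 0.36 with A_23_P60599 and from -0.49 to 0.090 with A_24_P222872 (both highest without miR-874-3p replicate 1). The A_24_P222872 difference ran from -1.60 to 0.081 for miR-210-3p against NC and from -1.40 to 0.28 against miR-874-3p, both highest without miR-210-3p replicate 2. Normexp and a signal floor shrank the differences of dim probes most: the UGT2B11 difference of miR-210-3p from miR-874-3p was -2.02, -0.16 with normexp and -0.87 with the floor, neither called. Over all tested probes, miR-210-3p against NC had 1016 higher and 525 lower calls, and 781 and 650 when arrays were centred on the median. For miR-874-3p against NC there were 52 and 44, and 156 and 225 with normexp.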

Other observations

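The UGT1A8 probe A_33_P3302075, which reads the shared end of UGT1A transcripts, was at 3.42 on NC replicate 2 and at -3.80 on NC replicate 1, while the UGT1A6 probe A_23_P60599, in the same shared end, was at -0.42 and -0.31 on the same arrays. The cause was not tested.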
